A study of Mus musculus with 12 samples.

Results

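The change over the training period was followed in the blood of untrained mice, the control animals of a study of visual learning. It rests on 6 of the 12 arrays of the series, labelled untrained pre 1 to 3 and untrained post 1 to 3. The arrays were taken by these labels alone, and all 27381 features on them were compared. All mice were of the strain that the labels write as C57B16/J, and no allele or transgene is named. By the labels the series drew on 16 male and 18 female mice, kept on a reversed cycle with 12 h of light. The labels do not say how the sexes were spread over the pools. At 8 to 12 weeks of age they had surgery under isoflurane to fix a bar to the skull, were given an analgesic, were housed singly and recovered for 7 d. They were then deprived of water and held by the bar on an air-cushioned ball in daily sessions, where untrained mice saw the visual cues but received water at random intervals. Trained partners had to answer the cue to be given water. The pre sample was drawn from a sinus of the skull during the surgery, and the post sample was trunk blood taken at death, soon after the trained partner had reached its criterion. Age, surgery, drugs, single housing, water restriction, time on the ball and the site of bleeding thus all changed between pre and post, and cannot be told apart in these arrays. Each array held pooled RNA of 7 mice, depleted of globin transcripts. The 34 mice of the labels are too few for separate mice in every pool of that size, and the labels do not tie mice to pools. The paper counts more mice than the labels. It describes the pools of the first experiment as unique in each condition, and the combined arrays as biological triplicates. By the paper both pre and post blood was taken from the control mice, and the main fit does not pair pre with post pools. The n and the errors below describe pools, not animals. Replicates 1 and 2 belonged to batch 1 and replicate 3 to batch 2, a later repeat of the experiment.

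Whole blood carries the RNA of red cells, platelets and several kinds of white cell at once. B cells bear a receptor made of an immunoglobulin and the CD79 chains, and they share with monocytes and dendritic cells the MHC class II molecules that show peptides to helper T cells. Platelets are fragments shed by megakaryocytes of the marrow. They have no nucleus and keep transcripts that the megakaryocyte made. In a measurement on whole blood, fewer cells of a type and less RNA per cell cannot be told apart, and this holds for every group of genes below. Values are log2 intensities, on which a difference of 1 is a factor of 2. Levels were not compared between genes, since each probe set has its own response. Defining markers of blood were present: in the 6 arrays Slc4a1, the red cell anion exchanger, lay between 9.32 and 10.07 and Gp9, a platelet glycoprotein, between 9.87 and 10.29.

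Medians of the 6 arrays ran from 1.459 to 1.519. Untrained post 1 had a highest value of 11.99, where the other 5 arrays reached 13.05 to 13.33. In a principal component analysis of these arrays the first component, with 28.9% of the variance, put the 3 pre arrays at -95.5 to -49.4 and the 3 post arrays at 24.3 to 117. Untrained post 2 was the post array nearest to the pre arrays on it.

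With limma and a term for batch, 185 of 27381 features (0.676%) changed at a Benjamini-Hochberg adjusted p under 0.05. Of these 45 rose (0.164%), by a median of 1.07 log2, and 140 fell (0.511%), by a median of -1.11. The median over all features was 0.02. Where leaving out 1 array moved the median of a list by over 1.5 times, values without such an array stand beside it. Falls went further than 1 log2 for 86 features and rises for 26. When the arrays were quantile normalized once more the split was 140 rises and 92 falls, so that the share of rises moved from 24.3% to 60.3%. All 185 features had the same sign in both batches, although batch 2 holds only 1 array per group and batch 1 was part of the same fit. In 183 of them the groups did not overlap, which by itself fixes the same sign in both batches. The match is thus no separate support. Without adjustment 3457 features had a p under 0.05, of which 1603 were higher after the period and 1854 lower. The call of single features hung on single arrays. Without untrained pre 2 or without untrained pre 3, limma called 0 features, with 2843 and 2723 at an unadjusted p under 0.05 and smallest adjusted p of 0.0542 and 0.0659. Without untrained post 1, 2 or 3 it called 12, 97 and 85, of which 11, 65 and 59 were among the 185. Without untrained pre 1 it called 147, of which 88 were among the 185. The sign of all 185 changes was kept in each of these 6 fits, and none of the changes moved by over 1.5 times. In 11 features, among them Cd79b, Cd79a, Cd72, H2-Aa, Ifi209, F5 and Plxna4, the call held in the 4 fits other than those without pre 2 or pre 3.

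The arrays of each group were also compared by rank, as a description. All 3 post arrays lay above all 3 pre arrays in 10.3% of all features, and below them in 8.43%. Of the 140 falls, 94 had untrained post 2 as their highest post array, and 88 had untrained pre 2 as the highest of the pre arrays. Of the 45 rises, 32 had their lowest value in untrained pre 2.

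**Figure D1:**
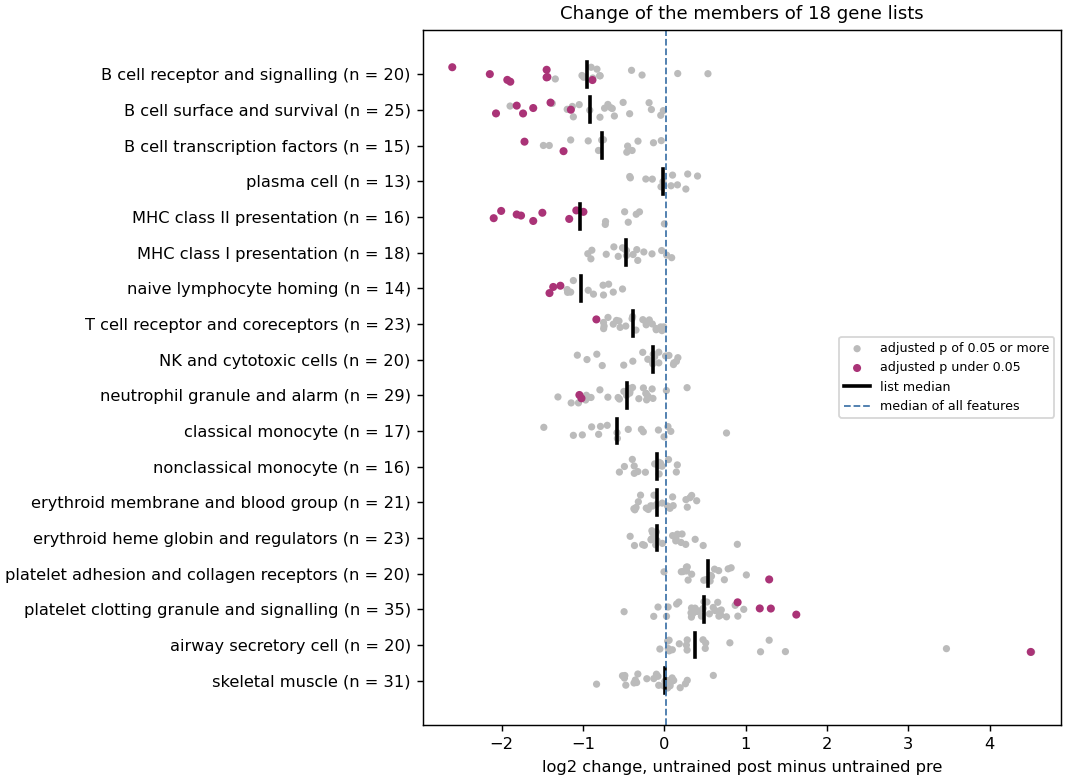
Log2 change from untrained pre to untrained post (x axis) for the members of 18 gene lists (y axis), with n the number of members measured. Each point is a gene, coloured by whether its limma adjusted p was under 0.05. Black bars are list medians and the dashed line is the median of all features, 0.02. B cell and MHC class II lists lie to the left with medians of -0.77 to -1.04, both platelet lists to the right at 0.49 and 0.54, and plasma cell genes at the dashed line.

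Genes of the B cell receptor and of the signalling beneath it made up a share of the falls. Of 20 measured members of that list 8 fell and 0 rose, with a list median of -0.95 log2, and in 15 the post arrays lay below all pre arrays. The largest called fall of any feature was that of Cd79b (Entrez gene 15985), a receptor chain that passes on the signal. It was 7.42, 7.71 and 7.16 in untrained pre 1, 2 and 3 and 4.47, 5.14 and 4.85 in untrained post 1, 2 and 3. Its values after the period were all at least 2 log2 under the lowest value before it, and the groups did not overlap. The change was -2.61 (SE 0.32, n = 3 arrays per group, limma adjusted p = 0.0122), or 6.1-fold, and -2.86 to -2.33 as each array was left out.

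Its partner Cd79a behaved alike. It was 8.60, 8.59 and 8.35 in untrained pre 1, 2 and 3 and 6.07, 7.00 and 6.03 in untrained post 1, 2 and 3. Untrained post 2 was the highest of the post arrays and still lay below all pre arrays. Cd79a changed by -2.15 log2 (SE 0.27, adjusted p = 0.0122). Ighm, the constant part of the IgM heavy chain that naive B cells bear, was 9.04, 9.52 and 9.18 in pre 1, 2 and 3 and 6.62, 7.85 and 7.47 in post 1, 2 and 3. The groups did not overlap, untrained post 1 was lowest, and the change was -1.93 (SE 0.36, adjusted p = 0.0381).

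Other falls were in genes that tune the receptor. Cd22 and Cd72, which dampen the receptor, fell by 1.44 and 1.45 log2, and Plcg2, the phospholipase that the receptor activates, fell by 0.88. Fcer2a, the low-affinity IgE receptor CD23 of mature B cells, fell by 1.45. The kinases and adaptors Blk (-0.99, adjusted p = 0.0579), Syk (-0.80, 0.0651), Btk (-0.83, 0.0651) and Blnk (-1.01, 0.0871) did not pass, though all their post arrays lay below all pre arrays. Lyn, a kinase shared with myeloid cells and platelets, stood at 0.16 (SE 0.16, adjusted p = 0.753), and Cd81, a widely expressed tetraspanin, at 0.54 (adjusted p = 0.238) with all post arrays above the pre arrays.

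Surface and survival genes of B cells showed the same direction. All 25 measured members had a negative change, with a median of -0.92, and 6 fell: Fcmr, Fcrl1, Fcrla, Ly6d, H2-Oa and H2-Ob, of which the last pair belongs to the class II list too. In 20 of 25 the post arrays lay below the pre arrays. Fcmr, the Fc receptor for IgM, was 7.21, 7.23 and 6.79 before and 4.45, 5.47 and 5.11 after, without overlap (change -2.07, SE 0.31, adjusted p = 0.022). Ms4a1, which encodes CD20, had a change of -1.90 with a wide error (SE 0.41, adjusted p = 0.0605) and did not pass. Tnfrsf13c, the receptor for the survival factor BAFF, had -0.92 (adjusted p = 0.111), whereas Tnfrsf13b, another receptor for BAFF, had -0.51 (adjusted p = 0.164), and neither passed.

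Transcription factors of the B lineage had a median of -0.77 over 15 measured genes, all negative, and 2 fell. Spib, an Ets factor, was 4.58, 4.52 and 4.78 in the pre arrays and 2.38, 3.44 and 2.90 in the post arrays (change -1.72, adjusted p = 0.0279). Pou2af1, the coactivator of octamer factors in B cells, was 4.99, 4.79 and 4.92 before and 3.58, 3.66 and 3.74 after (change -1.24, adjusted p = 0.0228). Neither gene's groups overlapped. Ebf1 (-1.49, adjusted p = 0.0501) and Pax5 (-1.42, 0.0894), the factors that set and hold B cell identity, did not pass.

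Genes of antibody-secreting cells gave no call. Of 13 measured plasma cell genes 0 rose and 0 fell, the median change was -0.01 (-0.075 without untrained pre 1 and 0.14 without untrained post 1), and in none did the groups stand apart. Igha, the constant part of IgA, was 7.99, 8.36 and 6.55 in the pre arrays and 7.83, 8.34 and 6.68 in the post arrays. The values overlapped, and the arrays of batch 2 were the lowest in both groups. The change was -0.017 with an SE of 0.16 log2, and Jchain, which joins IgA and IgM into polymers, had 0.16 (SE 0.23), likewise low in batch 2 (4.41, 5.30 and 3.56 before and 4.74, 5.30 and 3.70 after). Whether the change of Ighm differed from that of Igha was not tested.

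Several immunoglobulin variable segments fell. All 12 called V segments fell, 7 of 88 heavy chain and 5 of 94 kappa segments, with medians of -0.77 and -0.55 over all measured heavy and kappa segments. Post arrays lay below pre arrays in 51 of the 88 heavy chain segments. Alpha and beta V segments of the T cell receptor had medians of -0.04 (46 segments) and -0.11 (21 segments), and 0 of either were called. Ighv14-4 was 4.33, 4.07 and 4.03 in the pre arrays and 1.14, 2.56 and 1.91 in the post arrays (change -2.27, SE 0.34, adjusted p = 0.0218), with untrained post 2 the highest of the post arrays. Igkv12-46 fell by 1.69 and Ighv1-7 by 1.53. Igkv10-96 and Igkv17-127 passed although their groups overlapped, since pre 3 and post 3 of batch 2 both lay low (7.87, 8.26 and 6.73 against 6.59, 7.25 and 5.91 for Igkv10-96). Segments of a family are near copies, so a probe set may read several of them.

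**Figure D2:**
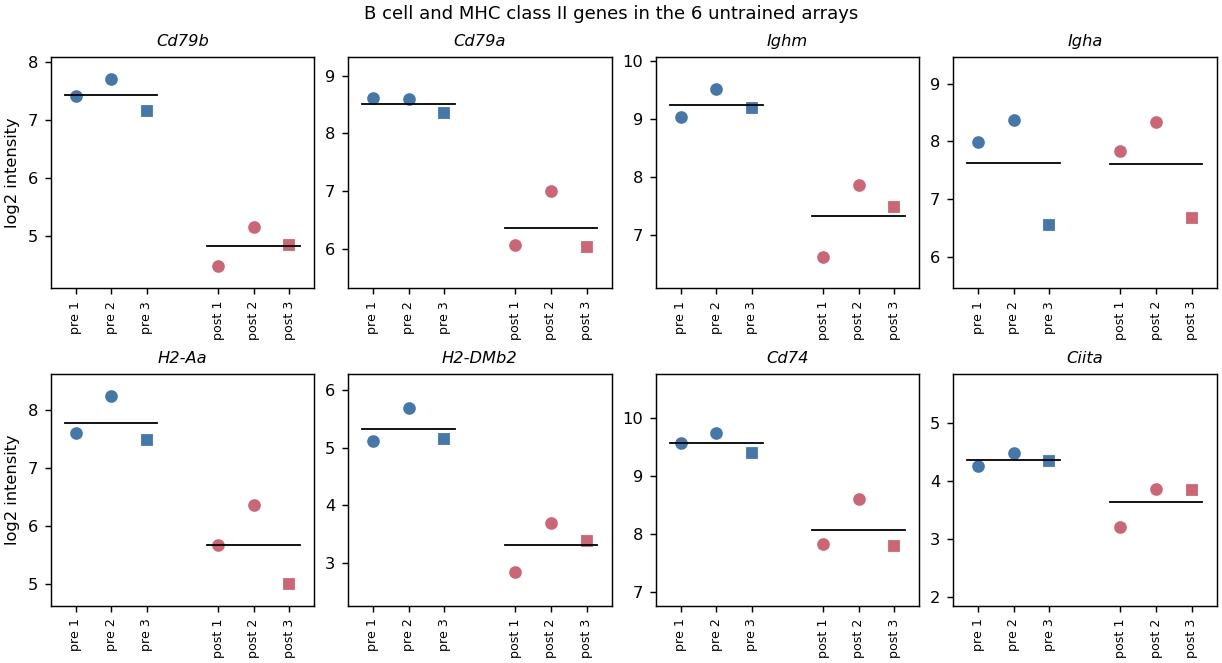
Log2 intensity (y axis, each panel spanning 4 units) of 8 genes in the 3 pre (blue) and 3 post (red) arrays of untrained mice (x axis). Circles are batch 1, squares batch 2 and lines group means. Cd79b, Cd79a, Ighm, H2-Aa, H2-DMb2 and Cd74 do not overlap between groups, Igha does, and Ciita does not overlap but did not pass the test.

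MHC class II genes made up the list with the largest share of calls among those described: 9 of 16 measured members fell, 0 rose, and the median was -1.04. The fallen members spanned the route of a class II molecule. H2-Aa and H2-Ab1 are the chains that hold the peptide, Cd74 is the invariant chain that guards them on the way, H2-DMa, H2-DMb1 and H2-DMb2 build the exchange factor that loads peptide, H2-Oa and H2-Ob build its inhibitor in B cells, and Ifi30 reduces disulfides of the antigen. Promoters of the genes on chromosome 17, other than H2-DMa and H2-Ab1, are shown first. These genes moved together. They are known to share a common control region with an X box and, closer to the start, a Y box of the CCAAT type. The stretches below are from RefSeq (GRCm38.p6), run 5′ to 3′ on the strand of the gene, and have in capitals the letters GATTGG and, where present at 15 to 25 bases before it, TGANG.
H2-Aa, chr17:34287857-34287916 (-): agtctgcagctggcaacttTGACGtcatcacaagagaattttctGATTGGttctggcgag
H2-DMb1, chr17:34153085-34153144 (+): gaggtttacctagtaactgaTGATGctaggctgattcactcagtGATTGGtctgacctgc
H2-DMb2, chr17:34145114-34145173 (+): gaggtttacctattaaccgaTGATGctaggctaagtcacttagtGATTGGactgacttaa
H2-Ob, chr17:34238803-34238862 (+): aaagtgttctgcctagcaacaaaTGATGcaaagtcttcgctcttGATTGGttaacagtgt
H2-Oa, chr17:34092291-34092350 (+): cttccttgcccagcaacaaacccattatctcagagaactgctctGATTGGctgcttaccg

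The letters GATTGG began 44 to 91 bases before the annotated start in these 5 genes, and TGANG preceded them with 20 bases between in H2-Aa, 19 in H2-DMb1 and in H2-DMb2, and 16 in H2-Ob. H2-Oa held no TGANG in that window. H2-DMb1 and H2-DMb2, neighbouring copies, agreed at 51 of 60 bases. The table of promoters, 250 bases before and 50 after the start, held 6 of the 7 class II genes of chromosome 17 that fell. All 6 had GATTGG on either strand in at least 1 of their listed promoters, against 16.1% of all 32851 promoters. TGANG followed by GATTGG at the stated distance was found in 4 of 6, against 0.846% of all promoters. The 6 are counted by gene and the rest by promoter, which favours the 6. H2-DMa, whose promoter is not printed, lacked TGANG at that distance. The letters and the window were picked after these promoters had been seen, so the shares are descriptions, and a match does not show that a factor binds.

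H2-Aa was 7.61, 8.25 and 7.49 in pre 1, 2 and 3 and 5.67, 6.37 and 5.01 in post 1, 2 and 3. Here untrained post 3 was lowest, untrained post 2 highest among the post arrays, and the groups were more than 1 log2 apart. The change was -2.10 (SE 0.24, adjusted p = 0.0122), with -1.91 in batch 1 and -2.48 in batch 2. H2-Ab1 went from 8.31, 8.28 and 7.73 to 6.06, 6.98 and 5.98 (change -1.76, adjusted p = 0.0367) and Cd74 from 9.58, 9.74 and 9.41 to 7.83, 8.61 and 7.79 (change -1.50, adjusted p = 0.0435). Neither overlapped.

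Among the loading factors, H2-DMb2 was 5.12, 5.68 and 5.15 before and 2.85, 3.69 and 3.39 after (change -2.01, adjusted p = 0.0218). Its near copy H2-DMb1 was 2.88, 3.33 and 2.97 before and 1.98, 2.22 and 1.99 after (change -0.996, adjusted p = 0.0381), and probes for such a pair may read both. H2-DMa fell by 1.08, H2-Oa by 1.82, H2-Ob by 1.61 and Ifi30 by 1.17. Ciita, the coactivator that switches class II promoters on, did not pass (-0.72, SE 0.20, adjusted p = 0.131), with pre values of 4.26, 4.49 and 4.35 and post values of 3.21, 3.86 and 3.85, which did not overlap. MHC class I genes had 0 calls among 18, with a median of -0.47. The dendritic cell list had a median of -0.02 over 15 genes (-0.12 without untrained post 2 and 0.016 without untrained pre 2), and its only call, Ly6d, is also a B cell gene.

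T cell genes leaned down, with 1 call in the T cell receptor list (4.35%, against 0.511% of falls among all features). In 6 of its 23 members the post arrays lay below all pre arrays (26.1%, against 8.43% of all features). All 23 members of the T cell receptor list were negative, with a median of -0.39, and 1 fell, Cd2, an adhesion receptor (4.37, 4.44 and 4.28 before and 3.34, 3.77 and 3.48 after, change -0.84, adjusted p = 0.0435). Lck, the kinase of the T cell receptor, had -0.54 (adjusted p = 0.173). The list's median shrank to -0.21 log2 when untrained pre 3 was left out. Genes that keep naive lymphocytes circulating through lymph nodes had a median of -1.03 over 14 members, all negative, and 11 of these had no overlap. Ccr7, the receptor that leads T and B cells into nodes, was 5.19, 5.86 and 5.55 before and 3.80, 4.60 and 3.96 after (change -1.41, SE 0.24, adjusted p = 0.0295). Cxcr4, the receptor for the marrow chemokine CXCL12, was 6.64, 7.24 and 6.68 before and 5.69, 5.83 and 5.20 after (change -1.28, adjusted p = 0.0218), and Btla, an inhibitory receptor, fell by 1.37. None of these 3 overlapped between groups, and untrained post 3 was the lowest array for Cxcr4 and Btla.

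Members of the homing list that did not pass were S1pr1, the receptor for exit from nodes (-1.19, adjusted p = 0.109), Klf2, a factor that drives its expression (-1.15, 0.192), and Il7r, a survival receptor of T cells (-0.69, 0.464). NK and cytotoxic genes had 0 calls of 20 and a median of -0.14 (-0.23 without untrained pre 1 and -0.07 without untrained pre 3). Nearest to the threshold were the chemokine Ccl5 (-0.76, adjusted p = 0.0501) and the granule gene Nkg7 (-0.95, 0.07).

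Myeloid genes leaned down. Of 29 neutrophil genes, 2 fell (6.90%, against 0.511% of all features) and 27 were negative, with a median of -0.46. In 15 of the 29 the post arrays lay below all pre arrays (51.7%, against 8.43% of all features). S100a9 and S100a8 form calprotectin, the main protein of the neutrophil's cytosol. S100a9 was 6.74, 7.24 and 6.80 before and 5.83, 6.27 and 5.62 after (change -1.02, adjusted p = 0.0366), and S100a8 was 7.71, 7.97 and 7.73 before and 6.73, 7.04 and 6.50 after (change -1.05, adjusted p = 0.0453), neither with overlap. Retnlg, a secreted neutrophil product, missed the threshold (-1.31, adjusted p = 0.0564), as did Csf3r, the receptor for G-CSF (-0.94, 0.136). The list of early granulocyte genes had 0 calls of 9 and a median of 0.08 (0.20 without untrained pre 1). In it Chil3, a chitinase-like lectin that alveolar macrophages make as well, was 2.80, 2.68 and 2.52 before and 5.37, 4.25 and 3.76 after (change 1.80, SE 0.51, adjusted p = 0.139). Classical monocytes had 0 calls of 17 (median -0.58, and -0.34 without untrained post 1), nonclassical monocytes 0 of 16 (-0.10, with -0.28 without untrained pre 2 and -0.013 without untrained pre 3) and the list of eosinophils, basophils and mast cells 0 of 18 (-0.05, and 0.06 without untrained post 2). Outside the lists Tyrobp, the DAP12 adaptor of myeloid and NK receptors, fell by 0.84 and Selplg, the ligand that lets leukocytes roll on selectins, by 1.35.

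Platelet genes were among the rises. Of 20 adhesion and collagen receptor genes 1 rose and 19 were positive (median 0.54), and of 35 clotting, granule and signalling genes 4 rose and 32 were positive (median 0.49). Post arrays lay above all pre arrays in 14 of 20 and 23 of 35. F5, clotting factor V, which platelets carry in their granules, was 5.90, 5.50 and 5.79 in the pre arrays and 7.22, 7.51 and 7.32 in the post arrays. The post values lay within 0.3 log2 of each other and well clear of the pre values. The change was 1.62 (SE 0.20, adjusted p = 0.0122), with 1.67 and 1.53 in the batches. Itga2, the alpha chain of the collagen receptor, was 5.04, 4.58 and 4.91 before and 6.10, 6.24 and 6.05 after (change 1.29, adjusted p = 0.0218).

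Both subunits of soluble guanylate cyclase, through which nitric oxide quiets platelets, rose. Gucy1a1 went from 1.61, 1.88 and 1.69 to 3.12, 3.12 and 2.86 (change 1.31, adjusted p = 0.0218) and Gucy1b1 from 5.07, 5.08 and 5.33 to 6.34, 6.36 and 6.30 (change 1.17, adjusted p = 0.0224). Tubb1, the tubulin of the platelet's marginal band, went from 8.21, 7.97 and 8.37 to 9.06, 9.13 and 9.06 (change 0.90, adjusted p = 0.0366). In these 3 genes the post arrays lay within 0.3 log2 of each other and above all pre arrays. Receptors known mainly from platelets did not pass: Gp9 had 0.21 (SE 0.13, adjusted p = 0.548), Gp1bb 0.28 and Clec1b 0.34, and neither did the integrin chains Itga6 (1.01, adjusted p = 0.0722) and Itgb1 (0.82, 0.107). Whether these changes differed from each other was not tested.

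The 11 genes of megakaryocyte growth and transcription had a median of 0.22 (0.12 without untrained post 1). Gfi1b, a repressor needed for platelet formation, was 3.66, 3.28 and 3.31 before and 4.41, 4.37 and 4.04 after, without overlap (change 0.85, adjusted p = 0.0367). Gata1 (0.38, SE 0.19) and Nfe2 (0.22, SE 0.16), factors that drive megakaryocyte maturation, did not pass. Several rises outside the lists belong to genes with a known place in platelets. Slc18a2, which packs serotonin into granules, was 3.00, 2.19 and 2.94 before and 3.88, 4.16 and 4.14 after (change 1.35, adjusted p = 0.0495), Angpt1, a vessel growth factor carried by platelets, rose by 1.19, Rab27b and Sytl4, which act in granule release, by 0.98 and 0.97, and the kinase Src by 0.77. These genes were grouped after their values had been seen, and no list was tested with them.

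Red cell genes gave no call. The 21 genes of the red cell membrane had a median of -0.10 and the 23 genes of heme, globin and erythroid control -0.09, with 0 calls in each. The lowest values with an array left out were -0.23 and -0.13, both without untrained pre 3. Both medians turned positive without untrained pre 1 (0.16 and 0.02) and after quantile normalization (0.06 and 0.02). The beta globin Hbb-bs was 3.21, 5.88 and 5.46 before and 5.81, 5.23 and 6.21 after, so that untrained pre 1 stood apart from the other 5 arrays. Globin transcripts had been depleted before hybridisation.

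**Figure D3:**
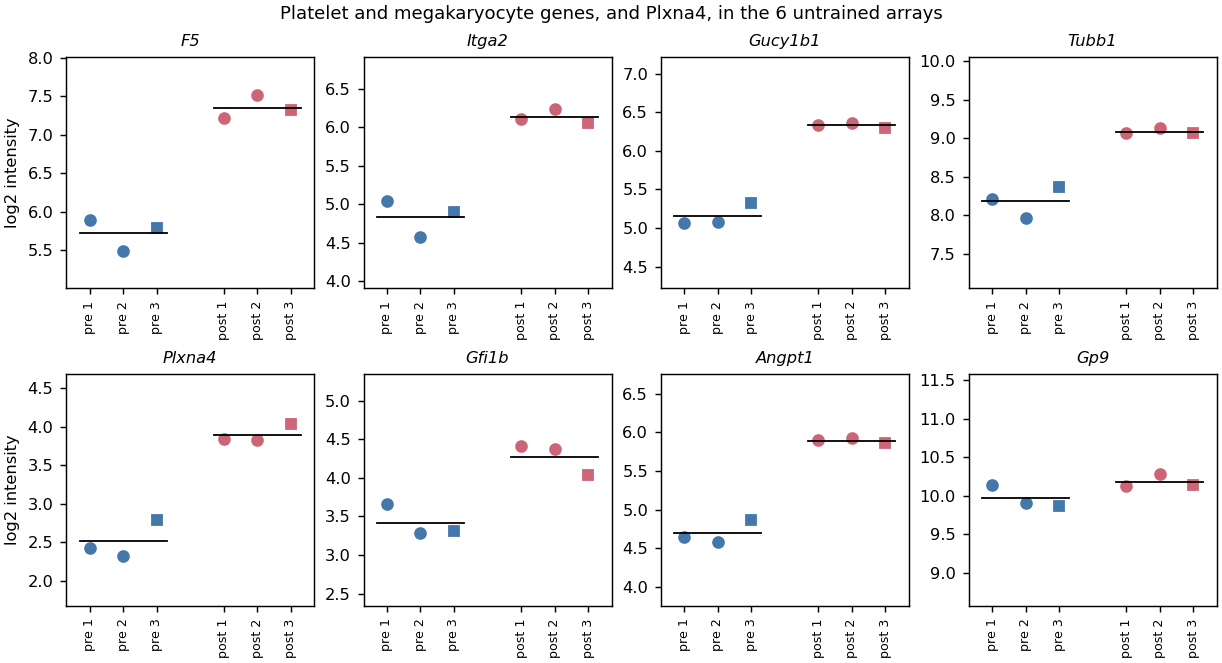
Log2 intensity (y axis, each panel spanning 3 units) of 7 genes of platelets and megakaryocytes and of Plxna4 in the 3 pre (blue) and 3 post (red) arrays of untrained mice (x axis). Circles are batch 1, squares batch 2 and lines group means. In 7 of the 8 genes all post arrays lie above all pre arrays, and in Gp9 they overlap.

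The other large rises were spread over roles. Plxna4, a semaphorin receptor known from axon guidance, was 2.43, 2.33 and 2.79 before and 3.84, 3.82 and 4.03 after (change 1.38, SE 0.17, adjusted p = 0.0122). The long non-coding RNA AI504432 rose by 1.66 log2, Pde7b, a phosphodiesterase that breaks down cyclic AMP, by 1.41, Grk5, a kinase that silences G protein-coupled receptors, by 1.25, and Adgrg1, an adhesion receptor also called GPR56, by 1.10. Bmp2, a growth factor of bone, rose by 1.26 from pre values of 1.40, 0.95 and 1.32, which lie below the median of all features (1.47), so the size of its rise is uncertain.

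Genes of stress and growth control went both ways. Cdkn1a, the cell cycle inhibitor p21 and a target of p53, was 2.66, 2.40 and 3.13 before and 4.37, 4.07 and 3.71 after (change 1.32, adjusted p = 0.0295), with 1.69 in batch 1 and 0.59 in batch 2. Sesn1, a sestrin that p53 induces as well, fell by 0.91 (adjusted p = 0.0366), and over the 20 p53 targets the median was -0.003 (-0.06 to 0.05 with single arrays left out). Dusp1, a phosphatase that ends MAP kinase signals and responds to glucocorticoids, was 6.90, 7.80 and 7.41 before and 5.45, 6.43 and 5.02 after (change -1.74, adjusted p = 0.0391), with untrained post 3 lowest and no overlap. Btg1, a brake on lymphocyte growth, fell by 1.38, and Rgs2, a brake on G protein signals, by 0.98. Per1, a clock gene that glucocorticoids induce, had -0.89 (adjusted p = 0.102), Tsc22d3, the glucocorticoid-induced leucine zipper, -0.43 (0.296) and Mt2, a metallothionein, 1.70 (0.17) with 2.54 in batch 1 and 0.012 in batch 2. The lists of glucocorticoid-induced genes (18 measured), immediate-early genes (22) and clock genes (19) had medians of -0.06, -0.06 and 0.10, and 1 rise and 1 fall, 1 fall, and 0 calls in that order. With single arrays left out these medians ran from -0.11 to -0.04, from -0.14 to -0.05 and from 0.05 to 0.16. The clock median turned to -0.04 among features at or above the median level.

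In the heat shock list 2 of 17 genes fell and 0 rose, with a median of -0.02 (-0.12 to 0.03 with single arrays left out). Hsf1, the factor that switches heat shock genes on, was 3.60, 3.67 and 3.57 before and 2.83, 2.75 and 2.65 after (change -0.87, SE 0.15, adjusted p = 0.0366), and Hspe1, the mitochondrial cochaperonin, fell by 0.78. Hsp90aa1, the inducible HSP90, had 1.20 (SE 0.31, adjusted p = 0.105) and did not pass, with all post arrays above the pre arrays. Interferon-stimulated genes had a median of -0.25 over 39 genes with 1 fall, Ifi27l2a (by 0.79), and the NF-kB list a median of -0.24 over 27 genes with 0 calls (-0.38 without untrained post 2 and -0.11 without untrained post 1). Ifi209, an interferon-inducible gene of the HIN-200 family that was in no list, was 3.85, 4.16 and 3.92 before and 2.06, 2.67 and 1.96 after (change -1.75, SE 0.21, adjusted p = 0.0122). Lists for proliferation (26 genes), hypoxia and glycolysis (20), inflammasomes (20) and pattern recognition (22) had 0 calls each and medians of 0.05, 0.07, -0.11 and -0.24, and the first pair turned to -0.03 and -0.02 without untrained post 1. The inflammasome median was -0.07 without untrained pre 2 and the pattern recognition median -0.38 without untrained post 2.

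Genes of the energy and protein machinery fell in small numbers. Cox4i1, a subunit of cytochrome oxidase, was 4.33, 4.63 and 4.23 before and 3.58, 3.58 and 3.58 after (change -0.81, adjusted p = 0.0417), the sole call among 34 respiratory chain genes, of which 32 were negative (median -0.19). The Krebs cycle enzymes Idh3b, Idh3g and Mdh2 fell by 1.33, 0.65 and 0.67. The 41 ribosomal protein genes had a median of -0.04 (-0.20 without untrained post 3). Ribosomal pseudogenes are near copies of their parent genes, and probes may read both. Of 50 such features 2 fell, Rpl9-ps6 by 1.33 and Rps2-ps6 by 0.998. Tuba1a, an alpha tubulin, was 1.98, 3.43 and 3.11 before and 1.03, 0.48 and 0.65 after (change -2.12, SE 0.38, adjusted p = 0.0366). Its post values lie below the median of all features. Lysosome (1 fall of 30, Ctsh, by 0.997), proteasome (0 of 24) and autophagy (0 of 23) lists had medians of -0.08, -0.26 and -0.05, and after quantile normalization the lysosome and autophagy medians lay above 0. With single arrays left out the lysosome, proteasome and autophagy medians ran from -0.12 to -0.013, from -0.30 to -0.16 and from -0.08 to 0.00027.

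Small nucleolar RNAs guide chemical marks on ribosomal RNA and are cut from introns of other genes. They fell in 13 of 889 cases (1.46%, against 0.511% of falls among all features) and rose in none. Over all 889 the median was -0.01. The 71 members with a Snord symbol (box C/D) had 6 falls (8.45%) and a median of -0.70. The 33 with a Snora symbol (box H/ACA) had 3 falls (9.09%) and a median of -0.45. The 18 genes with an Snhg symbol, a family named as snoRNA hosts, had 0 calls and a median of -0.004. The snoRNAs were not matched to their own host genes, which can lie outside that family. Snord35a was 5.46, 6.08 and 6.29 before and 3.92, 4.01 and 4.37 after (change -1.85, SE 0.28, adjusted p = 0.0224), and Snord17 was 5.86, 6.42 and 6.38 before and 4.67, 3.96 and 4.69 after (change -1.78, adjusted p = 0.0218). Neither overlapped. Snora16a fell by 1.81, Snora52 by 1.62 and Snord15b by 1.73, and Scarna6, a guide in Cajal bodies, by 1.35.

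Of 531 microRNA features 1 rose and 2 fell (0.565%), a share near the 0.676% called among all features. The mature sequences of Mir1895, which rose, and Mir680-1, which fell, are given with the seed, bases 2 to 8, in capitals (RefSeq, GRCm38.p6), since the seed sets which transcripts a microRNA can pair with.
mmu-miR-1895, chr3:134240515-134240536 (-): cCCCCGAGgaggacgaggagga
mmu-miR-680, chr6:129691541-129691561 (+): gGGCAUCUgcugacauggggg

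Their seeds differ, and no other microRNA name in the table of 1738 mature sequences carries either of them. The probe sets read the transcript of the locus and not the mature form. Mir1895 was 3.35, 2.91 and 3.38 before and 4.23, 4.84 and 4.16 after (change 1.20, SE 0.22, adjusted p = 0.0381), without overlap, and its change in trained mice was 0.13. Mir680-1 was 4.39, 4.24 and 4.89 before and 2.90, 3.78 and 2.59 after (change -1.42, adjusted p = 0.0453). Mir467e was 5.76, 5.24 and 5.57 before and 3.41, 4.57 and 3.64 after (change -1.65, SE 0.27, adjusted p = 0.0258). In both falling microRNAs untrained post 2 was the highest of the post arrays. Over the 32 precursors of the Mir466, Mir467 and Mir669 families, many of which lie together in a cluster, the median was -0.003, and Mir467e was the only call.

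Genes of tissues other than blood cells were examined with lists of their markers. The largest called rise of any feature was in an airway gene. Bpifa1, a secreted defence protein of the nose and airways, was 0.65, 0.63 and 1.97 in the pre arrays and 7.15, 5.11 and 4.50 in the post arrays. Untrained post 1 was highest, and pre 3 was the highest of the pre arrays. The change was 4.50 (SE 0.90, adjusted p = 0.0477), from 3.75 to 5.31 with single arrays left out, and no longer called without any one of the 6 arrays. Since the pre values of arrays 1 and 2 lie under the median of all features, the size is uncertain.

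Over the 20 airway genes 19 were positive, with a median of 0.38, or 0.21 without untrained post 1 and 0.19 in batch 2, and 1 passed. Their mean level was 1.64 to 1.91 in the pre arrays and 2.31 to 3.41 in the post arrays. Scgb1a1, which encodes the club cell protein, was 0.26, 0.35 and 2.36 before and 7.57, 5.85 and 3.11 after (change 4.52, SE 1.21, adjusted p = 0.116) and Cyp2f2, a cytochrome of club cells, 1.41, 1.14 and 1.84 before and 6.59, 4.56 and 3.66 after (change 3.47, adjusted p = 0.0579). Neither passed, although neither overlapped. Cbr2, a reductase of club cells and olfactory epithelium, had 2.32 (adjusted p = 0.173). The surfactant gene Sftpc of alveolar cells stood at 1.59, 1.74 and 1.77 before and 2.08, 1.49 and 1.64 after, which overlapped. The same airway genes were higher in trained mice after the period, with 4.21 log2 for Bpifa1, 3.92 for Scgb1a1 and 3.18 for Cyp2f2. These values move with the site of bleeding and with every other difference between pre and post, and their source was not tested.

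Some macrophage genes had unlike changes in the batches, a difference that was not tested. Gpnmb, a glycoprotein of lipid-laden macrophages, was 1.43, 1.39 and 2.33 before and 4.87, 4.72 and 2.77 after, which gave 3.39 in batch 1 and 0.43 in batch 2 (pooled 2.40, adjusted p = 0.0751). Spp1, osteopontin, had 2.33 and 0.14, and Mmp12, the macrophage elastase, 2.61 and 0.0016. Of the 21 tissue macrophage genes 0 passed, with a median of 0.19, or 0.10 without untrained post 1 and 0.063 in batch 2, and mean levels of 1.91 to 2.04 before and 2.08 to 2.62 after. The defining gene Adgre1, which encodes F4/80, had -0.35, and Marco, a receptor of alveolar macrophages, 0.22 (SE 0.13), neither called.

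Skeletal muscle genes stood apart in a single array. Myh4, a fast myosin, was 5.30, 1.29 and 1.30 in the pre arrays and 1.49, 1.75 and 2.14 in the post arrays, so that untrained pre 1 was high and the other 5 were between 1.29 and 2.14. The mean level of 31 muscle genes was 3.02 in untrained pre 1, 1.71 and 1.84 in the other pre arrays and 1.92 to 2.21 in the post arrays. The median change was 0.01 with all arrays 0.29 without untrained pre 1 and -0.23 without untrained pre 2, and 0 of the 31 were called. Without untrained pre 1 limma called 147 features, of which 88 were among the 185 called with all arrays. Lists of brain (26 genes), olfactory epithelium (15), endothelium and fibroblasts (21), bone and cartilage (21), skin (26), thyroid and salivary gland (15) and fat and liver (19) had medians of 0.18, 0.13, 0.18, 0.14, 0.09, 0.03 and -0.01. An array left out took the olfactory median to 0.0099 (untrained post 1), that of endothelium to 0.11 (pre 2), of bone to 0.09 (pre 1), of skin to 0.15 (pre 2), of thyroid to 0.13 (pre 3) and of fat and liver to 0.04 (post 3). Their calls were Ctsk, the collagen-cleaving cathepsin of osteoclasts, which rose by 0.98, and Ly6d in the skin list, which is a B cell gene too. The olfactory median turned to -0.05 among features at or above the median level.

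**Figure D4:**
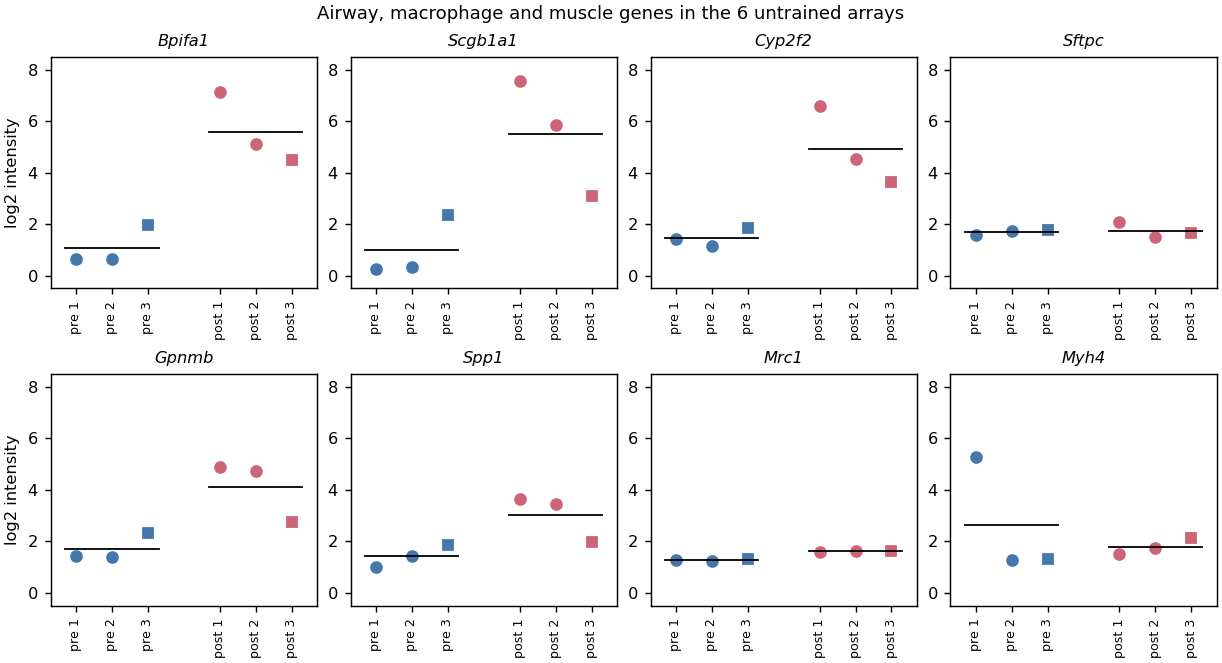
Log2 intensity (y axis, -0.5 to 8.5 in all panels) of 8 genes of airway, macrophage and muscle in the 3 pre (blue) and 3 post (red) arrays of untrained mice (x axis). Circles are batch 1, squares batch 2 and lines group means. Bpifa1, Scgb1a1 and Cyp2f2 are higher in all post arrays, Gpnmb and Spp1 mainly in those of batch 1, and Myh4 is high in untrained pre 1 alone.

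The change in untrained mice was set beside that in trained mice, which had to answer the cue to be given water and learned the task. By the paper the trials per session also varied between the groups, though total trials did not differ significantly. These differences cannot be told apart in these arrays. In trained mice limma called 77 features (0.281%). Of the 185 features called in untrained mice 23 (12.4%) were called there too, which is 29.9% of the 77, and all 23 had the same sign. Among them were F5, Itga2, Gucy1b1, Tubb1, Plxna4 and Grk5, which rose, and Cd72, Cxcr4, Btla, Ifi209, Mir467e and Mir680-1, which fell. Of all 185, 175 had the same sign in trained mice and 169 a smaller size, but these features were chosen by their size in untrained mice, so smaller values elsewhere are built into the choice. The median change in trained mice was 0.87 log2 over the 45 rises and -0.59 over the 140 falls.

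The difference itself was tested as the interaction of training and period. It was called for 1 of 27381 features (0.00365%), Gm22576, a predicted small nuclear RNA gene, with 2.33, 2.46 and 2.38 before and 3.03, 3.10 and 2.57 after in untrained mice. Its change was 0.51 in untrained and -1.45 in trained mice, a difference of -1.96 (SE 0.22, adjusted p = 0.0317). The call was lost with the replicate number as a block, in batch 1 alone, and without untrained pre 1, pre 2, pre 3 or post 2. None of the 185 was called: the smallest adjusted interaction p among them was 0.21, for Brk1, which belongs to the WAVE complex that drives actin branching, with -0.77 in untrained and 0.48 in trained mice (difference 1.25, SE 0.18). At an unadjusted p under 0.05 the interaction was counted in 1552 features (5.67%), a share close to the threshold itself. For Cd79b the changes were -2.61 and -1.18 (difference 1.42, SE 0.45, limma adjusted p of the interaction = 0.832), for H2-Aa -2.10 and -0.83 (1.27, SE 0.34, 0.802) and for Tuba1a -2.12 and 0.17 (2.29, SE 0.53, 0.775). For F5 they were 1.62 and 1.44 (-0.18, SE 0.29, 0.973). Other features with small interaction p were Cxcr1, a chemokine receptor of neutrophils (-0.31 and 0.70, limma adjusted p of the interaction = 0.606), and Rhbdd2, a rhomboid family protein (0.53 and -0.71, 0.606).

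**Figure D5:**
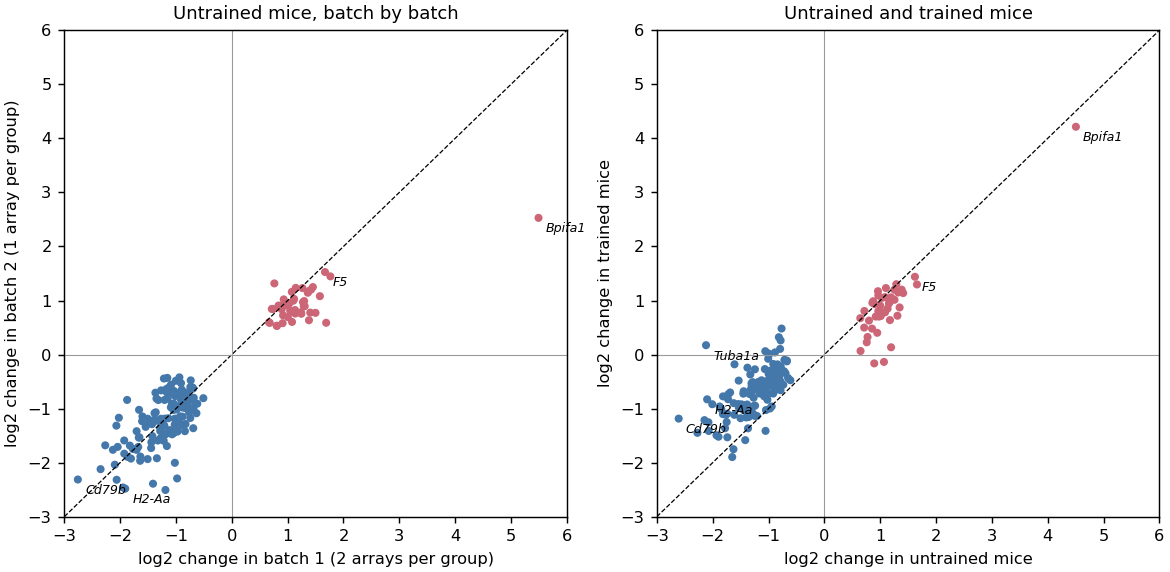
Log2 changes of the 185 features called in untrained mice, with rises in red and falls in blue and the dashed line marking equal change. Left, batch 1 (x axis, 2 arrays per group) against batch 2 (y axis, 1 array per group), where all points lie in the same-sign quadrants. For the 183 features whose groups do not overlap, this match of sign is built in. Right, untrained (x axis) against trained mice (y axis), where 175 points keep their sign.

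Of the 7 genes that the study followed, 0 passed over the period in untrained mice. Card6, a CARD protein linked to NF-kB, was 2.44, 2.56 and 2.79 before and 1.28, 1.90 and 1.55 after, without overlap (change -1.02, SE 0.24, adjusted p = 0.0747), with -0.92 and -1.24 in the batches. Irf8, a factor of myeloid and B cells, was 3.87, 4.30 and 4.18 before and 2.99, 3.61 and 3.32 after, also without overlap (change -0.81, adjusted p = 0.0813). Nfkb2 had -0.37 (adjusted p = 0.325) and Ikbkb -0.66 (0.384). Impdh2, an enzyme of guanine nucleotide synthesis, was 1.94, 0.82 and 1.21 before and 1.94, 0.94 and 3.08 after, with untrained post 3 far above the rest, and its change of 0.66 had an SE of 0.53. Dnase1l2 had -0.086 and the reference gene Ywhaz 0.054 (SE 0.14). Among sex-linked genes Xist was 3.86, 5.19 and 5.44 before and 4.27, 4.91 and 4.48 after and Ddx3y 1.86, 1.69 and 1.77 before and 2.28, 1.93 and 2.44 after, and 0 of the 5 measured sex-linked genes were called.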

How the data were processed

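RNA of pooled blood from untrained and trained mice was hybridised to Affymetrix Mouse Gene 2.0 ST arrays, 12 in all. The deposited values are log2 intensities, 1 per feature, which the authors made with RMA and Brainarray probe sets, 1 per Entrez gene, in the affy package (version 1.62.0) under R 3.6.0. RMA corrects background and quantile normalizes arrays over the series. No source used here names the genome build that the probe sets follow. Depth has no meaning for arrays, and their number limits the precision.

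The deposited values were used as they stood. A linear model with 4 group means and a term for batch was fitted to all 12 arrays by lmFit and eBayes of limma (version 3.58.1, under R 4.3.3), with 7 residual degrees of freedom. The contrasts were post minus pre in untrained mice, the same in trained mice, and their difference. P-values were adjusted by Benjamini-Hochberg over 27381 features, with calls at 0.05. The procedure was tested on simulated data. Symbols came from the platform annotation for 26794 features and from RefSeq (GRCm38.p6) for 564, and 23 stayed unnamed. The number of value columns that matched no labelled sample was 0.

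The comparison and the gene lists were chosen with earlier results of these data known, so lists are described by counts and medians and were not tested as sets. Genes were named by a rule: the 15 largest called rises and falls with a regular symbol, called list members, up to 4 members of each list with the smallest p, called small RNAs and V segments, the genes the study followed, defining markers, and the 5 smallest interaction p in each direction. Genes named outside it were chosen after their values were seen. These were Adgrg1, Btg1, Idh3b, Idh3g, Ifi209, Mdh2, Rab27b, Rgs2, Rpl9-ps6, Rps2-ps6, Selplg, Src, Sytl4 and Tyrobp, Gm22576, and list members that did not pass other than those 4. Some genes that the rule would name are not reported here.

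Alternatives were no batch term, the replicate number as a block, a filter on dim features, quantile normalization, centring, limma's trend and array weight options, each batch alone, the untrained arrays alone, and each untrained array left out.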

Additional observations from a re-analysis of the deposited data

Results flagged for a closer look

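The change of Gm22576, a predicted small nuclear RNA gene, differed between trained and untrained mice by -1.96 log2, and it was the only one of 27381 features whose difference passed limma's test of the interaction after adjustment. At an unadjusted p under 0.05 there were 1552 features (5.67%). Groups of 3 arrays are too small for a formal test of a single outlying array, and none was run.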

How the results depend on the processing

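All 185 changes kept their sign under every alternative in which they were tested, while the number called moved with the setting. For the 183 features whose groups did not overlap, the sign in each batch alone was fixed by that. The count of called features was 335 (89 rises, 246 falls) among features at or above the median level, 93 (27 and 66) with limma's trend option, and 9 (2 and 7) in batch 1 alone. Quantile normalization gave 140 rises and 92 falls, and the model with no batch term gave 82 falls. Leaving out single arrays gave 0 to 147 calls, with 0 to 33 rises and 0 to 114 falls, and 0 to 1 for the interaction. The cause of these differences was not tested.

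Deviations from group means correlated between -0.19 and 0.135 for arrays with the same replicate number. Arrays of unlike number were not compared, so these values cannot decide whether the pools are paired. The paper took pre and post blood from the same mice but does not tie mice to arrays. With the replicate number as a block 226 features were called, and 0 for the interaction. Batch 1 alone also gave 0 for the interaction, with 1520 features at an unadjusted interaction p under 0.05 (1609 with the block).

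Changes near 0 or resting on 1 array changed sign. In batch 1 alone Dnase1l2 was 0.0023 and Xist 0.071, after quantile normalization Igha was 0.083, and after centring Sftpc was -0.0032. With single arrays left out Dnase1l2 ran from -0.18 to 0.050, Igha from -0.12 to 0.15, Impdh2 from -0.11 to 1.24, Jchain from -0.075 to 0.40, Myh4 from -1.65 to 0.56, Sftpc from -0.15 to 0.16, Xist from -0.79 to 0.14 and Ywhaz from -0.027 to 0.17.

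With 3 pools per group, and 1 per group in batch 2, changes of low features and of those with unequal pools have wide errors, and calls near the threshold depend on each array.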
